A study of Mus musculus with 63 samples.

Results

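The genes described here encode the constitutive proteasome, the protease that degrades ubiquitin-tagged proteins, together with the chaperones that assemble it and the particles that activate it. Members were all gene symbols made of Psma, Psmb, Psmc, Psmd, Psme or Psmg and a number, without the immunoproteasome subunits Psmb8, Psmb9 and Psmb10. This gave 44 of the 23393 gene symbols used. Of these members, 42 reached a TPM of 1 (TPM is transcript abundance scaled for gene length and library size) in at least 10% of the cells, as did 7421 genes in all. The exceptions were Psma8, an alpha subunit of the testis, at 0 in every cell, and Psmb11, the catalytic subunit of thymic epithelium, above 1 TPM in 1 cell.

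Single mouse cells of the gate used for common helper-like innate lymphoid progenitors (CHILP) were sorted and their mRNA was sequenced cell by cell. The study is about innate lymphoid cells made from pluripotent stem cells, and the labels call all cells C57BL/6. WT-CHILP cells were positive for CD45.2, CD127 and α4β7, negative for lineage markers, CD135 and CD25, and intermediate or negative for Sca1. The iR9-CHILP cells passed the same gate, were also GFP+ and were sorted from the marrow of Rag2-/-Il2rg-/- recipients 4 weeks after transplantation, hosts that lack lymphocytes, while the design text names no host for the WT cells. The labels name no animal, so each group is 1 sample of cells, spreads are SDs over cells, and no test was made. Titles end in a suffix. The 29 WT libraries all have suffix 1, while the 34 iR9 libraries have suffix 1 (3 libraries), 2 (15) or 3 (16). The 15 iR9 numbers that occur with both suffix 2 and suffix 3 gave nearly the same profiles (Pearson r from 0.974 to 0.992, against at most 0.423 between different numbers), and each such pair was averaged and counted once, which leaves 29 WT and 19 iR9 cells. Of 660 member values in those pairs, 215 were at 10 TPM or more in both libraries and 6 in only 1. Suffix and group can therefore hardly be told apart, and values of the 3 iR9 cells of suffix 1 are given beside the main results. Of these 3, number 12 had 7 of 8 mast cell markers at 10 TPM or more, with a summed 231998 TPM, and 5 of 8 myeloid markers, so class values of suffix 1 are also given without it where they turn a direction.

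A proteasome core is a barrel of alpha rings, which gate the entry, around beta rings, which carry the cutting sites. A base of ATPases unfolds substrates and threads them into the barrel, and a lid removes their ubiquitin. Cells that make many proteins depend on this machine, and the transcription factor NRF1, encoded by Nfe2l1, raises many of its genes together through antioxidant response elements when proteasome activity is low.

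Promoter stretches are shown to put the members' shared start-site features beside their expression. RefSeq (GRCm38.p6) gave a window from 250 bases before to 50 bases after the start for 36 of the 44 members. On either strand, 6 of the 36 members had the antioxidant response element TGACNNNGC in a window (16.7%, against 14% of 27025 genes). For the CCAAT box (letters CCAAT) the shares were 36.1% against 41.1%. The GC box GGGCGG occurred in 22 members (61.1% against 38.2%) and the ETS motif CCGGAAG in 14 (38.9% against 9.93%). The 27025 genes were not filtered by expression. These are matches of letters, not sites of binding. Each stretch below is 130 bases long, is written 5′ to 3′ on the gene's strand, ends before the most upstream annotated start, and has the named motif, on either strand, in capitals. Psmb5 is shown for its antioxidant response element (chr14:54618023-54618152, minus strand). The members Psmd4 (chr3:95042615-95042744, minus strand) and Psme3 (chr11:101316083-101316212, plus strand) are shown because they share the ETS motif and lie at opposite ends of the expression differences. The same holds of Psma7 (chr2:180042465-180042594, minus strand) and Psma1 (chr7:114276119-114276248, minus strand) for the GC box.
Psmb5: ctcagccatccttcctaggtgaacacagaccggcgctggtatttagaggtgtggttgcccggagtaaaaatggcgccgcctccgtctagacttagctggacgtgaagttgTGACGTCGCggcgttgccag
Psmd4: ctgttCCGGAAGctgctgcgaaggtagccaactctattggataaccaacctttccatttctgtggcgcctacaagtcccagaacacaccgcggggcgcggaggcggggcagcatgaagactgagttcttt
Psme3: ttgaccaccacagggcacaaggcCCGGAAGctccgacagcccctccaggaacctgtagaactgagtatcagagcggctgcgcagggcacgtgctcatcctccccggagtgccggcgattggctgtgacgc
Psma7: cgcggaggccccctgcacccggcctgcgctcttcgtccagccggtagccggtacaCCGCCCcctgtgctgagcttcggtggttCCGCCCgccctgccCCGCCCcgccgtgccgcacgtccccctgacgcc
Psma1: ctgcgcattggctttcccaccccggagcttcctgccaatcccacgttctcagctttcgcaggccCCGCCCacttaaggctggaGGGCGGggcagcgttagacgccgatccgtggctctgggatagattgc

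The proteasome genes took up a like share of the transcripts in both groups, but in the iR9 cells fewer of them carried that share. Summed over the 44 members, WT cells held between 0.486% and 2.42% of their TPM in proteasome transcripts, with a median of 1.39%. The iR9 cells held between 0.707% and 2.40%, with a median of 1.47%. The ranges overlap almost wholly. The number of members at 10 TPM or more ran from 5 to 41 with a median of 24 in WT cells, and from 6 to 29 with a median of 16 in iR9 cells. At 1 TPM or more the medians were 26 and 24 members. Between 1 and 10 TPM lay 17.9% of all member values in iR9 cells and 8.07% in WT cells, so the 2 thresholds read the groups differently, and 10 TPM is used below for cells that hold a transcript. The TPM per member at 10 TPM or more had a median of 401 in WT cells and 849 in iR9 cells. For the 3 iR9 cells of suffix 1, the share ran from 0.707% to 1.67%, the number of members at 10 TPM or more from 13 to 27, and the TPM per such member from 333 to 507, within the WT range for each measure.

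The whole library narrowed along with the proteasome genes. The median number of genes at 10 TPM or more was 2495 in WT cells (775 to 5287) and 1346 in iR9 cells (852 to 2584). Per 1000 such genes, WT cells held a median of 9.17 proteasome genes and iR9 cells 11.6. Within groups, cells with more genes also had more proteasome genes: Pearson r was 0.94 over the 29 WT cells and 0.69 over the 19 iR9 cells, where both axes come from the same library. The share of TPM followed gene number less closely, with r of 0.10 and -0.07. Over the 16 iR9 cells of suffixes 2 and 3, r was 0.81 for the number of proteasome genes and 0.43 for the share. Counts were also compared over the 16 WT and 19 iR9 cells that have between 1514 and 3238 genes at 1 TPM or more, the range both groups share. This range does not make the groups equal in gene number. Within it the median number of genes at 1 TPM or more was 2495 in WT and 1732 in iR9 cells. At 10 TPM or more it was 1950.5 and 1346. There the median number of members at 10 TPM or more was 18.5 in WT and 16 in iR9 cells, and the mean of log2(TPM + 1) over the members was 3.996 ± 0.972 (SD, n = 16) and 3.82 ± 1.11 (SD, n = 19). Without that restriction it was 4.87 ± 1.63 (SD, n = 29) and 3.82 ± 1.11 (SD, n = 19). The part of cell size, RNA content or sequencing depth in these differences was not tested, since TPM keeps no depth.

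**Figure D1:**
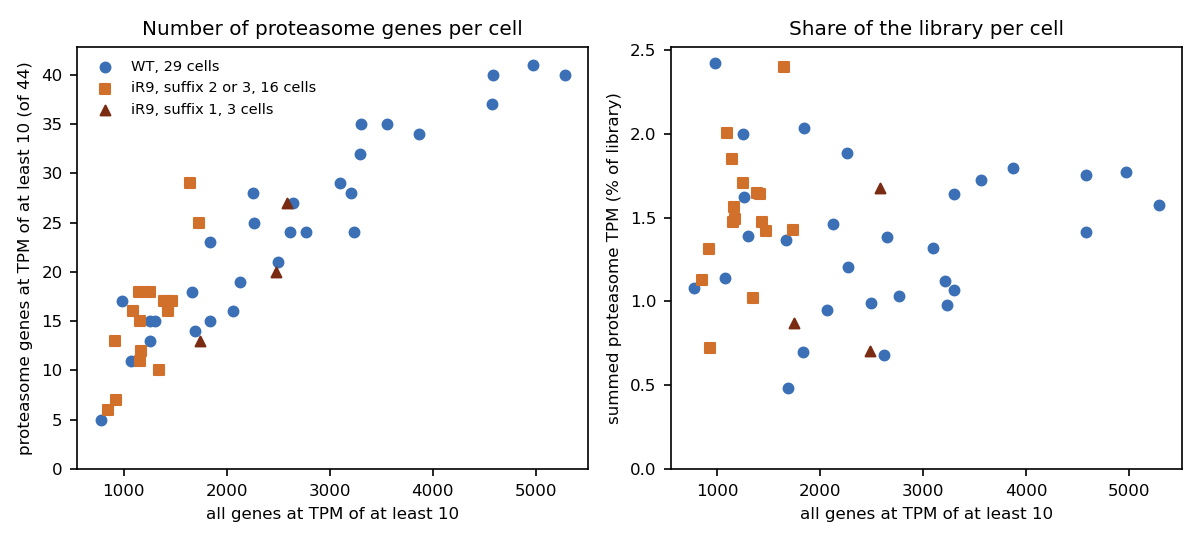
Each point is 1 cell. The x axis of both panels is the number of genes at 10 TPM or more; the y axis is the number of the 44 proteasome genes at 10 TPM or more (left) or their summed TPM in percent of the library (right). The iR9 cells of suffixes 2 and 3 gather at low gene numbers, where they hold 6 to 29 proteasome genes, but their shares of the library lie in the WT range.

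On the log2(TPM + 1) scale, 24 of the 44 members were lower in iR9 cells by at least 1 (54.5%, against 44.5% of all 7421 genes) and 1 was higher by at least 1 (2.27%, against 5.15%). A difference of 1 on this scale is used as a mark of size here and is not a test. In all, 36 members were lower (81.8%, against 81.4% of all genes), 7 higher and Psma8 was at 0 in both groups. The 44 members include Psma8 and Psmb11, which did not pass the filter and are not among the 7421 genes. The median difference over the members was -1.16, beside -0.88 over all genes. Among the 910 genes at or above the members' median level, 43.4% were lower by at least 1 and the median was -0.74, and among 77 ribosomal protein genes 43 were lower by at least 1 and the median was -1.08. In the shared range of gene number, 9 members were lower by at least 1 (20.5%, against 26.3% of all genes) and 7 were higher (against 10.7%), with a median of -0.40 beside -0.37 over all genes. Over the 3 iR9 cells of suffix 1, 20 members were lower by at least 1 (39.3% of all genes were). Higher by at least 1 were 10 (23.9%). Without the cell with mast cell markers these were 19 and 14, and the share of all genes was not counted there. On the log2 ratio of the groups' mean TPM, 22 members were above 0 and 21 below, with a median of 0.02. The median was -0.56 over all genes and 0.05 over the 910 genes at or above the members' median level. Of those 910 genes, 51.8% were above 0. The order of the members by level was shared between the groups: across the 44 members, mean log2(TPM + 1) in WT and in iR9 cells had a Pearson r of 0.89, against 0.83 across all genes.

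**Figure D2:**
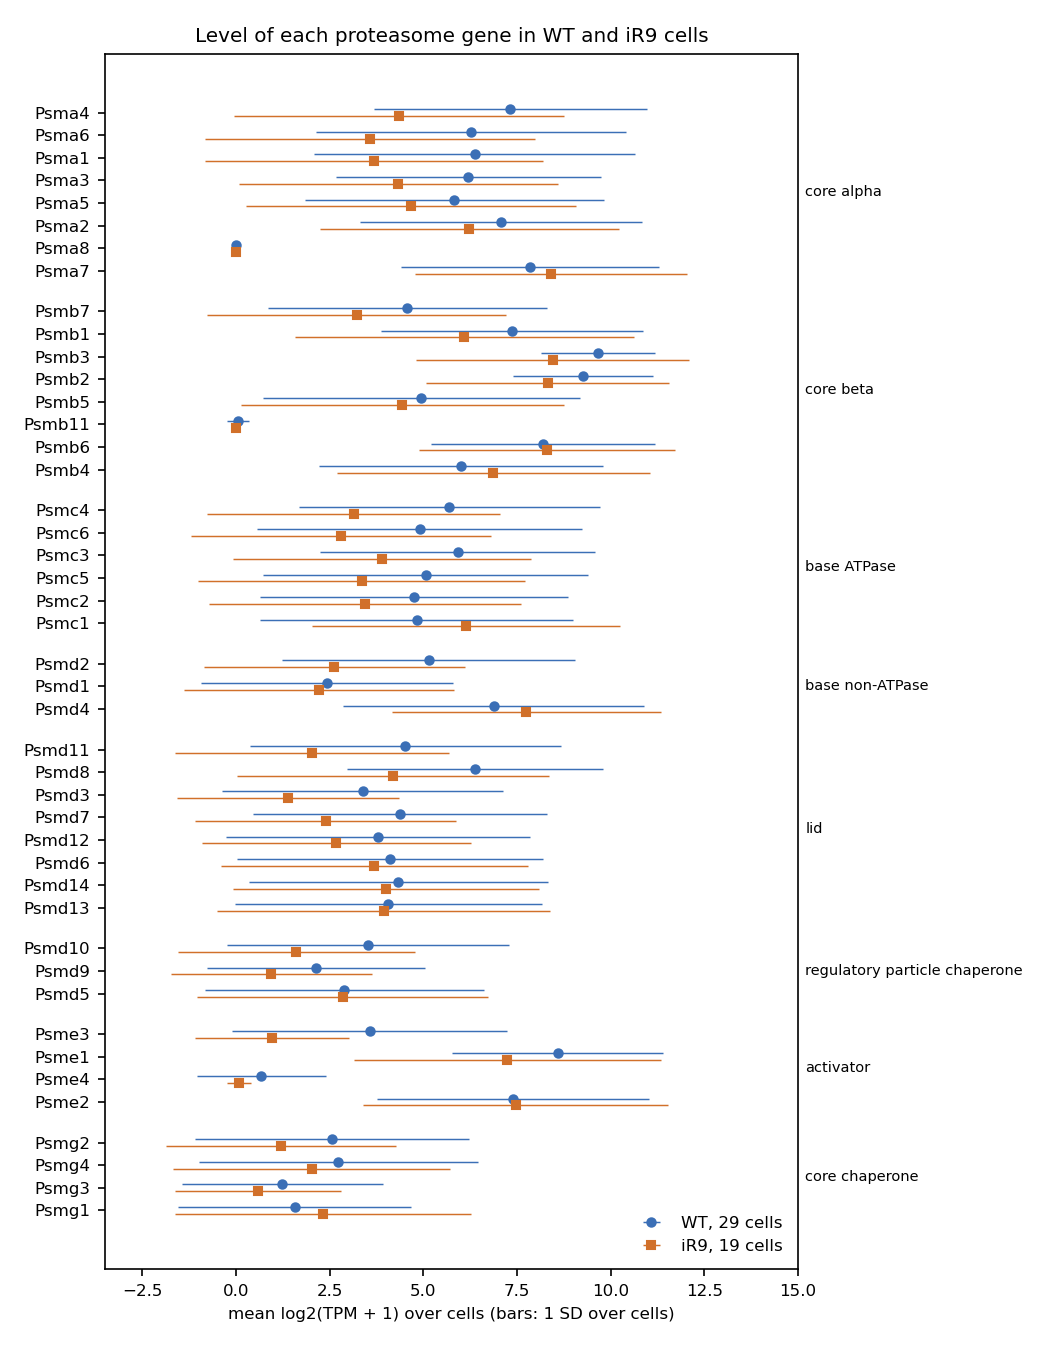
Each row is 1 of the 44 members, grouped by class and sorted within it by the difference between groups. Points give the mean of log2(TPM + 1) over 29 WT cells and 19 iR9 cells, and bars 1 SD over cells, which reach below 0 where many cells are at 0; 36 members lie lower in iR9 cells, and the bars overlap for each.

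The alpha ring of the core, whose tails form the gate of the barrel, held the 3 largest lower differences among the members. Of its 8 genes, 5 were lower by at least 1 (62.5%, against 44.5% of all genes) and none was higher by at least 1. In the shared range of gene number 3 were lower by at least 1 (37.5%, against 26.3% of all genes) and 1 was higher. The class mean of log2(TPM + 1) per cell was 5.86 ± 1.72 (SD, n = 29) in WT and 4.41 ± 1.52 (SD, n = 19) in iR9 cells. The class difference of -1.45 was -0.71 in the shared range of gene number. Psma4 (chr9:54950790-54958030, GRCm38, GENCODE M21) had the largest difference of any member, -2.96. Its TPM ran from 0 to 1583 with a median of 586 in WT cells, and from 0 to 2030 with a median of 1.43 in iR9 cells. The groups overlap over their whole range, and the difference lies in how many cells held the transcript: 23 of 29 WT cells were at 10 TPM or more (79.3%, exact 95% interval 60.3% to 92.0%) and 8 of 19 iR9 cells (42.1%, 20.3% to 66.5%). In those cells the mean log2(TPM + 1) was 9.02 and 9.21. These intervals, and those below, are Clopper-Pearson intervals and cover counting error only.

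Psma6 (chr12:55384222-55418454) and Psma1 (chr7:114264606-114276118) had the next largest differences, at -2.69 and -2.68. Psma6 had a median of 344 TPM in WT cells (0 to 1854) and of 1.23 in iR9 cells (0 to 1604). Psma1 had a median of 419 TPM in WT cells (0 to 2056) and of 0.794 in iR9 cells (0 to 1926). Each was at 10 TPM or more in 19 WT cells, and in 6 and 7 iR9 cells, and 2 of the 3 iR9 cells of suffix 1 held both at 346 TPM or more. Within the shared range of gene number the difference of Psma1 shrank to -0.72, while those of Psma4 and Psma6 were -2.21 and -2.11. Psma3 and Psma5 were lower by 1.88 and 1.15, and Psma2 had a difference of -0.84. Psma7 (chr2:180036374-180042433), the alpha subunit with the highest WT mean, went the other way, at 0.56. Its median was 623 TPM in WT cells (0 to 2237) and 889 in iR9 cells (0 to 2254), and 24 WT and 15 iR9 cells were at 10 TPM or more. The 3 cells of suffix 1 had 491, 889 and 0 TPM of Psma7, a mean 1.60 below WT.

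The beta ring, which holds the proteolytic sites, differed less than the alpha ring. Its class mean was 6.26 ± 1.58 (SD, n = 29) in WT and 5.71 ± 1.64 (SD, n = 19) in iR9 cells. Of its 8 genes, 3 were lower by at least 1 (37.5%, against 44.5% of all genes). In the shared range of gene number the class difference was 0.15, and over the cells of suffix 1 it was 0.50 (0.99 without the cell with mast cell markers), so the direction turns in both. Psmb6, the caspase-like catalytic subunit (chr11:70525367-70527858), differed by less than the spread between cells. Its TPM ran from 0 to 3980 with a median of 549 in WT cells and from 2.01 to 2061 with a median of 1079 in iR9 cells, a difference of 0.12 on means of 8.18 ± 2.99 (SD, n = 29) and 8.30 ± 3.41 (SD, n = 19). Psmb5, the chymotrypsin-like subunit that proteasome inhibitors such as bortezomib bind (chr14:54614119-54618022), was low in many cells of both groups and ran from 0 to 1456 TPM with a median of 26.3 in WT cells and from 0 to 1402 with a median of 2.81 in iR9 cells. It was at 10 TPM or more in 55.2% of WT cells (16 of 29, interval 35.7% to 73.6%) and in 42.1% of iR9 cells (8 of 19, interval 20.3% to 66.5%), and its difference of -0.51 became 1.94 in the shared range of gene number. Psmb7, the trypsin-like subunit (chr2:38588036-38644087), had the largest lower difference of the ring, -1.36. It ran from 0 to 778 TPM with a median of 87.5 in WT cells and from 0 to 696 with a median of 1.19 in iR9 cells. Its difference was 0.10 in the shared range of gene number and 1.19 over the cells of suffix 1, so its direction depends on which cells are compared.

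Of the non-catalytic beta subunits, Psmb2 and Psmb3 were held by most cells of both groups. Psmb3 (chr11:97703399-97713500) had the highest WT mean of all members, at 9.66 ± 1.52 (SD, n = 29), and only 1 of 29 WT cells was under 10 TPM, against 5 of 19 iR9 cells. Its median was 989 TPM in WT cells (5.63 to 2799) and 1122 in iR9 cells (3.59 to 3767), so the difference of -1.20 comes from those 5 iR9 cells. Psmb2, at 10 TPM or more in 28 WT and 16 iR9 cells, had a difference of -0.94, and Psmb1 had a difference of -1.28. Psmb4 (chr3:94884093-94886961) was higher in iR9 cells by 0.85. It had a median of 239 TPM in WT cells (0 to 1469) and of 696 in iR9 cells (0.806 to 2130), and the 3 cells of suffix 1 had 833, 881 and 1139 TPM. Counting the 14 core genes Psma1 to Psma7 and Psmb1 to Psmb7, WT cells had a median of 11 at 10 TPM or more (2 to 14) and iR9 cells 8 (2 to 12).

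Of the 6 ATPases of the base, which unfold the substrate, 5 were lower by at least 1 (83.3%, against 44.5% of all genes). The other was higher by at least 1 (5.15% of all genes were). In the shared range of gene number 2 were lower by at least 1 (33.3%, against 26.3% of all genes). The class mean was 5.19 ± 2.28 (SD, n = 29) in WT and 3.80 ± 2.07 (SD, n = 19) in iR9 cells, a difference of -1.39 that was -0.42 in the shared range of gene number. Psmc4 (chr7:28041707-28050101) was lowest, with a difference of -2.54. It ran from 0 to 1155 TPM with a median of 256 in WT cells and from 0 to 959 with a median of 1.60 in iR9 cells, and was at 10 TPM or more in 69.0% of WT cells (20 of 29, interval 49.2% to 84.7%) and in 26.3% of iR9 cells (5 of 19, interval 9.15% to 51.2%), none of them of suffix 1. Psmc3 (chr2:91054009-91066369) had the highest WT mean of the class, at 5.91, and a difference of -2.01. Its median was 201 TPM in WT cells (0 to 917) and 1.89 in iR9 cells (0.486 to 1424). In the 6 iR9 cells at 10 TPM or more its mean level was 1.59 above that of the 21 such WT cells. Psmc3 thus reached 10 TPM in fewer iR9 cells, but stood at more TPM in those cells. At 1 TPM or more it was found in 24 of 29 WT and 17 of 19 iR9 cells. Psmc6, Psmc5 and Psmc2 had differences of -2.09, -1.71 and -1.30.

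Psmc1 (chr12:100110154-100123405), which encodes the ATPase Rpt2, was the only member higher by at least 1 in iR9 cells, at 1.31. Its TPM ran from 0 to 1528 with a median of 67.5 in WT cells and from 0.841 to 1438 with a median of 333 in iR9 cells. The groups overlap, and the shares of cells at 10 TPM or more were close, at 16 of 29 (55.2%, 35.7% to 73.6%) and 11 of 19 (57.9%, 33.5% to 79.7%). In those cells the mean level was 1.17 higher in iR9. The 3 cells of suffix 1 had 333, 312 and 654 TPM, and the difference was 1.95 in the shared range of gene number. No cell in the iR9 group was at 0 for this gene, but 6 lay between 1 and 10 TPM. Most iR9 cells are averages of a pair of libraries, which are at 0 only where both libraries are. With every library on its own, or with TPM below 10 set to 0, Psmc1 was not higher by at least 1.

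The non-ATPase base subunits, the scaffolds and ubiquitin receptor of the base, went different ways. Their class difference was -0.62 over all cells and 0.74 in the shared range of gene number, so the direction turns there. Psmd2 (chr16:20651652-20663414), a scaffold that docks ubiquitin-like domains, had a difference of -2.52, with a median of 195 TPM in WT cells (0 to 724) and of 0.758 in iR9 cells (0 to 528). Psmd4 (chr3:95032694-95042614), the ubiquitin receptor Rpn10 and the member of this class with the highest WT mean, had a difference of 0.88. Its median was 440 TPM in WT cells (0 to 3626) and 797 in iR9 cells (2.24 to 2806), with 21 of 29 and 14 of 19 cells at 10 TPM or more. The groups overlap for both genes. Psmd1, the other scaffold, was at 0 in most cells of both groups and had a difference of -0.21. Psmd4 and Psmb4, both higher in iR9 cells, lie 145733 bases apart on chromosome 3.

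All 8 lid genes had lower means in iR9 cells (81.4% of all genes did), 5 of them by at least 1 (62.5%, against 44.5% of all genes). In the shared range of gene number 1 of the 8 was lower by at least 1 (12.5%, against 26.3% of all genes). Over the cells of suffix 1, 3 of the 8 were above WT. The lid score was 4.37 ± 2.09 (SD, n = 29) in WT and 3.04 ± 1.60 (SD, n = 19) in iR9 cells, and the difference of -1.33 was -0.23 in the shared range of gene number. Psmd11 (chr11:80428615-80473248), the lid subunit Rpn6 that clamps lid and core together, had the largest difference, -2.50. Its median was 149 TPM in WT cells (0 to 1690) and 0 in iR9 cells (0 to 823), and 15 WT cells but 4 iR9 cells were at 10 TPM or more. Of those 4, 2 were of suffix 1, at 256 and 284 TPM, so the mean over suffix 1 was 0.87 above WT. Psmd8 (chr7:29174188-29180701) had the highest WT mean of the lid, with a median of 184 TPM in WT cells (0 to 1103) and of 1.65 in iR9 cells (0 to 1132), a difference of -2.19. Psmd3, Psmd7 and Psmd12 were also lower by at least 1, with differences of -1.99 for Psmd7 and -1.11 for Psmd12. Psmd14, the deubiquitinase of the lid, had a difference of -0.33, Psmd6 of -0.43 and Psmd13 (chr7:140881968-140898643), least lower of the class, of -0.13. Psmd13 had a median of 3.17 TPM in WT cells (0 to 1061) and of 1.52 in iR9 cells (0 to 1569).

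**Figure D3:**
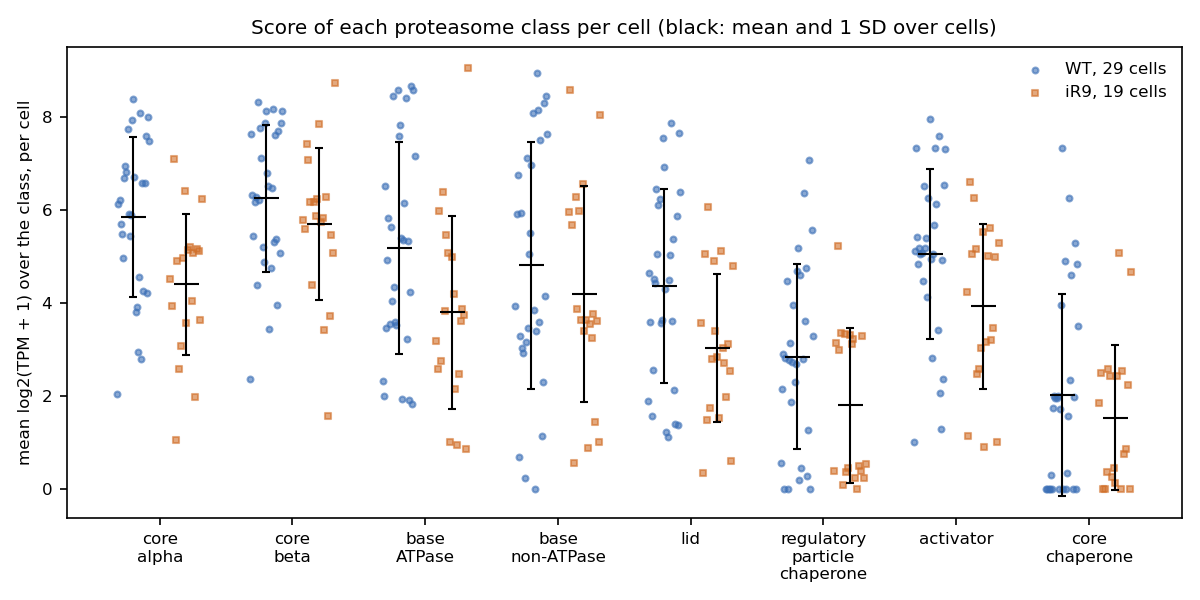
Each point is 1 cell, and the y axis is the mean of log2(TPM + 1) over the genes of a class in that cell; black lines give the mean and 1 SD over 29 WT or 19 iR9 cells. The group means differ most for the core alpha class (5.86 against 4.41) and least for the core chaperones (2.02 against 1.53), and the points of the groups overlap in every class.

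Activators open the core without ubiquitin. The activator class mean was 5.05 ± 1.83 (SD, n = 29) in WT and 3.93 ± 1.77 (SD, n = 19) in iR9 cells, and the class was split. Over the cells of suffix 1 the class difference was 0.24 (0.77 without the cell with mast cell markers), and in the shared range of gene number -0.54. Psme1 and Psme2, whose products form the interferon-inducible activator ring and whose genes lie 5912 bases apart on chromosome 14, were abundant in both groups. Psme1 (chr14:55578123-55581529), the activator gene with the highest WT mean, had a median of 666 TPM in WT cells (0 to 2574) and of 646 in iR9 cells (1.34 to 3435), and its difference was -1.35. Psme2 (chr14:55587441-55591113) had a median of 505 TPM in WT cells (0 to 1563) and of 544 in iR9 cells (0 to 2130), and a difference of 0.07. The nuclear activator Psme3 (chr11:101316213-101323537) had the largest difference of the class, -2.61. It ran from 0 to 667 TPM with a median of 1.54 in WT cells, 11 of them at 10 TPM or more (37.9%, 20.7% to 57.7%), and from 0 to 268 TPM with a median of 0.251 in iR9 cells, 2 of them at 10 TPM or more (10.5%, 1.3% to 33.1%). It was also lower by mean TPM, at 131 in WT and 15.9 in iR9 cells. The activator Psme4 passed the filter on low values mainly through WT cells, with 4 WT cells and no iR9 cell at 10 TPM or more.

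The 2 classes of chaperones that assemble the complex had the lowest class means. The regulatory particle chaperones had a class mean of 2.85 ± 2.00 (SD, n = 29) in WT and 1.80 ± 1.67 (SD, n = 19) in iR9 cells. Of these 3 genes, 2 were lower by at least 1 (66.7%, against 44.5% of all genes). In the shared range of gene number 0 of the 3 were (26.3% of all genes were). Over the cells of suffix 1 the class difference was 0.023 (1.26 without the cell with mast cell markers), and in the shared range of gene number -0.18. Psmd10 (chrX:140948429-140956728), which encodes gankyrin, had the highest WT mean of them and a difference of -1.92. It was at 10 TPM or more in 13 WT and 3 iR9 cells, and its 2 values of 224 and 507 TPM in suffix 1 cells put the mean of suffix 1 2.46 above WT. Psmd9 had a difference of -1.18 and Psmd5 (chr2:34849734-34874968) of -0.05. The core chaperones had a class mean of 2.02 ± 2.18 (SD, n = 29) and 1.53 ± 1.57 (SD, n = 19). Their class difference of -0.49 was 0.35 in the shared range of gene number. Psmg1 (chr16:95979933-95990960), a chaperone of alpha ring assembly, was 0.76 higher in iR9 cells with few cells on either side: 6 WT cells and 4 iR9 cells were at 10 TPM or more, with a highest value of 354 TPM in WT and 1253 in iR9 cells, and the cells of suffix 1 were at 0. Psmg2, its partner, went the other way, at -1.36, with 10 WT and 2 iR9 cells at 10 TPM or more. Psmg4, with the highest WT mean of this class, had a difference of -0.71, and Psmg3 of -0.65.

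The split between cells holding a transcript and its level in them held for most members with enough cells. Of the 44 members, 31 had at least 5 cells of each group at 10 TPM or more. In these cells the mean log2(TPM + 1) was higher in iR9 for 28 of the 31, with a median of 0.67, while 79.5% of the 1739 genes with as many cells were higher, with a median of 0.70. The exceptions were Psmc6 (-0.62), Psmb2 (-0.18) and Psma1 (-0.01). The share of cells at 10 TPM or more was lower in iR9 for 38 of the 42 members that passed the filter (90.5%) and higher for 4. Of all genes that passed, 84.9% had a lower share. Over the ribosomal protein genes, 76 had such cells in both groups, and 16 of them were higher in iR9, with a median of -0.41. The members shared this with the run of genes, and most ribosomal protein genes did not.

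**Figure D4:**
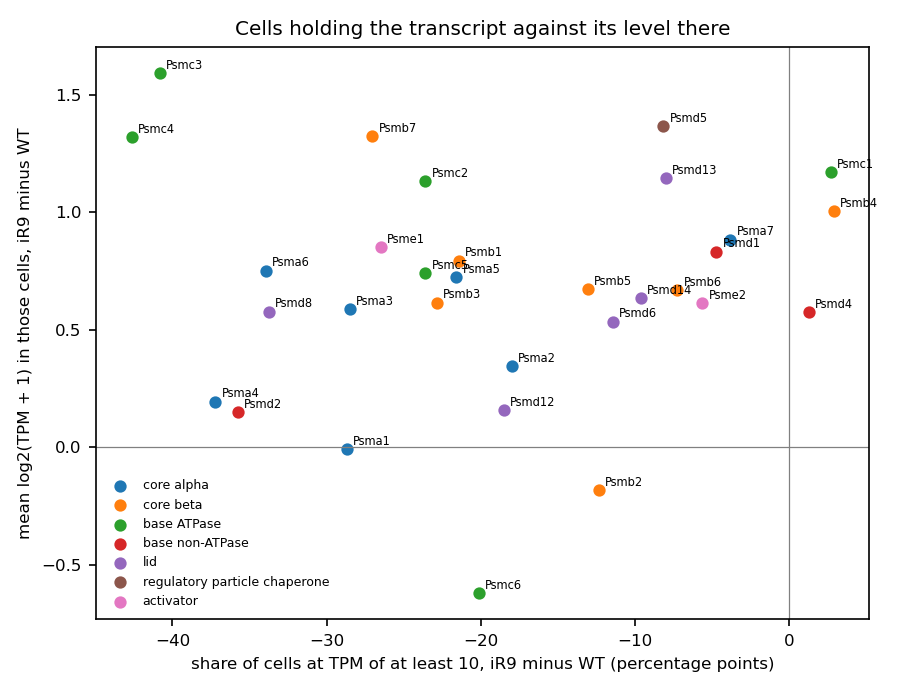
Each point is 1 of the 31 members with at least 5 cells of each group at 10 TPM or more. The x axis is the difference in the share of such cells in percentage points and the y axis the difference in mean log2(TPM + 1) within them, both iR9 minus WT; 28 points lie above 0 on the y axis, and Psmc1, Psmb4 and Psmd4 lie to the right of 0 on the x axis.

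Immune cells can replace the 3 constitutive catalytic subunits with Psmb8, Psmb9 and Psmb10, and the exchange was read within each cell. Psmb8 was above Psmb5 in 26 of 29 WT cells and in 19 of 19 iR9 cells, and no cell had Psmb5 but not Psmb8 at 10 TPM or more. The within-cell difference in log2(TPM + 1) was 4.69 ± 4.39 (SD, n = 29) in WT and 6.40 ± 4.37 (SD, n = 19) in iR9 cells, and 7.14 ± 4.45 (SD, n = 16) in the WT cells of the shared range of gene number, so the direction between groups turns there. Psmb6 was above Psmb9 in 22 WT and 12 iR9 cells, with within-cell differences of Psmb9 minus Psmb6 of -2.04 ± 4.68 (SD, n = 29) and -3.56 ± 6.51 (SD, n = 19).

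The pair that differed most between groups was Psmb10 and Psmb7. Psmb10 minus Psmb7 was 0.53 ± 4.95 (SD, n = 29) in WT and 4.45 ± 5.26 (SD, n = 19) in iR9 cells. Psmb10 alone was at 10 TPM or more in 5 of 29 WT and 11 of 19 iR9 cells, and both were in 12 and 5. In the shared range of gene number the WT mean was 1.21, and the iR9 cells of suffixes 2 and 3 had a mean of 5.08 ± 5.03 (SD, n = 16). The 3 iR9 cells of suffix 1 had 7.79, -0.07 and -4.58, the first of them in the cell with mast cell markers, so without it suffix 1 lies below WT. Psmb10 itself had a median of 176 TPM in WT cells (0 to 674) and of 556 in iR9 cells (2.88 to 1068). All 3 constitutive catalytic genes were at 10 TPM or more in 12 WT and 2 iR9 cells, and all 3 immunoproteasome genes in 13 WT and 9 iR9 cells. Over the shared range of gene number, these were 1 of 16 WT and 2 of 19 iR9 cells for the constitutive genes, and 4 of 16 and 9 of 19 for the immunoproteasome genes, so the direction of the first turns there.

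**Figure D5:**
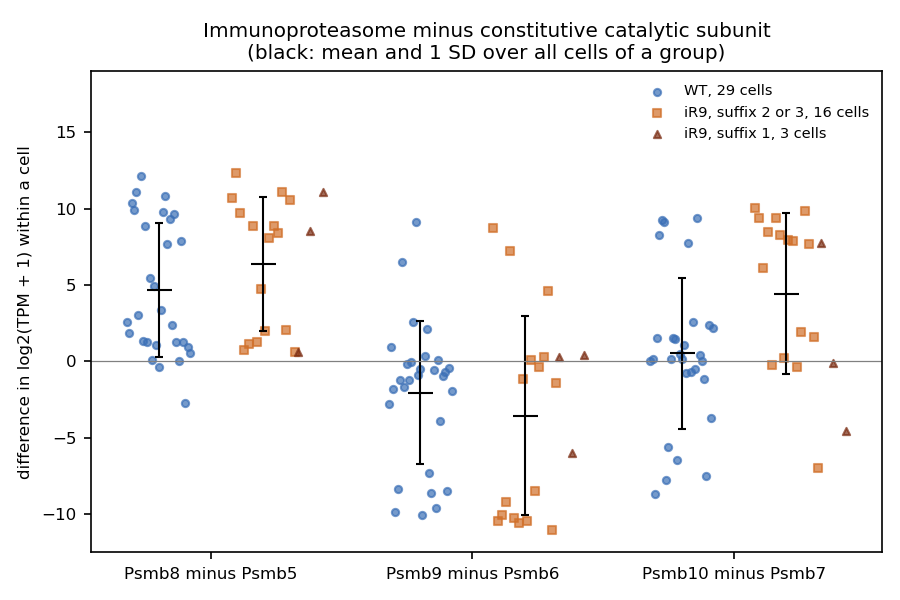
Each point is 1 cell, and the y axis is the difference in log2(TPM + 1) between an immunoproteasome subunit and the constitutive subunit it replaces; black lines give the mean and 1 SD over 29 WT or 19 iR9 cells. Psmb10 minus Psmb7 centres near 0 in WT cells (0.53) and higher in iR9 cells (4.45), and the groups overlap in each pair.

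Over all cells, the mean log2(TPM + 1) over the members spread more widely in the WT group than in the iR9 group. It ran from 1.86 to 7.65 in WT cells and from 1.99 to 6.33 in iR9 cells. In the shared range of gene number this turned, with an SD of 0.972 in WT and 1.11 in iR9 cells. The 4 highest WT cells, at 7.02 to 7.65, had 37 to 41 members at 10 TPM or more, and also 7 to 12 of the 12 cycling cell genes (such as Mki67 and Top2a) at that level. No iR9 cell had more than 2 of these genes at 10 TPM or more. With the 5 WT cells that had at least 5 of them left out, 18 members were lower by at least 1 and 3 were higher, and the core alpha difference was -1.06 in place of -1.45. The share of all genes was not counted without these cells, so the counts cannot be set against it. The highest iR9 cell, at 6.33, was the 1 library of suffix 3 with no partner of suffix 2; it had 29 members at 10 TPM or more among 1643 genes.

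Marker genes of the gate and of other cells differed between the groups, and for some lists also between the iR9 suffixes. Of 9 progenitor markers (such as Id2, Il7r and Gata3), WT cells had a median of 7 at 10 TPM or more (2 to 9) and iR9 cells 4 (1 to 7). Of all genes, WT cells had a median of 2495 at that level and iR9 cells 1346. Summed progenitor marker TPM went the other way, with a median of 8965 in WT and 10616 in iR9 cells. Dendritic cell markers reached 3 of 8 or more in 17 WT cells and no iR9 cell, and erythroid markers had a median of 0 in WT and 2 of 5 in iR9 cells. The 3 iR9 cells of suffix 1 had medians of 7 progenitor and 0 erythroid markers, as WT cells did. Their median of dendritic markers was 0, beside 3 in WT cells. For suffixes 2 and 3 these medians were 3.5, 2 and 0. Summed dendritic marker TPM ran from 3.71 to 170617 in WT and from 0 to 11277 in iR9 cells, and summed erythroid marker TPM from 0 to 3999.7 and from 1.43 to 14700. At least 3 myeloid or mast cell markers were at 10 TPM or more in 5 WT cells and in the 1 iR9 cell of suffix 1 named above. With these cells left out 24 members were lower by at least 1 and 0 higher, and the share of all genes was not counted. B cell markers reached at most 1 in any cell. Their part in the proteasome differences was otherwise not tested.

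The other genes of the pathway were read from lists of their roles. Of 15 partners and regulators of the proteasome, 7 were lower in iR9 cells by at least 1 (46.7%, against 44.5% of all genes) and none was higher by at least 1. In the shared range of gene number 5 were lower by at least 1 (33.3%, against 26.3% of all genes) and 1 was higher. The largest differences were those of Ngly1 and Adrm1. Ngly1, the deglycosylase that activates NRF1, had a difference of -3.04, with a median of 2.60 TPM in WT cells (0 to 1225) and of 0 in iR9 cells (0 to 321). Adrm1, the ubiquitin receptor Rpn13, had a difference of -2.37, with a median of 1.14 TPM in WT cells (0 to 859) and of 0 in iR9 cells (0 to 632). Both groups reached 0 for each of these. Over the cells of suffix 1 the difference was -0.35 for Ngly1 and -3.69 for Adrm1. Nfe2l1 itself, named for its role after its values were seen, had a difference of 0.21 and was at 10 TPM or more in 3 WT and 4 iR9 cells. The core maturation factor Pomp, named likewise, had a median of 432 TPM in WT and 437 in iR9 cells.

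Among genes that encode ubiquitin, the tag itself, Rps27a was lower by at least 1 and Ubb was not. Ubb, named after its values were seen, had a median of 7043 TPM in WT and 8497 in iR9 cells and a difference of -0.03. Rps27a, which encodes ubiquitin fused to a ribosomal protein, had a difference of -2.79, with a median of 482 TPM in WT cells (0 to 1395) and of 219 in iR9 cells (0 to 746), and its difference over the cells of suffix 1 was -4.55.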

How the data were processed

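Single cells were sorted by surface markers and their mRNA was amplified with the Discover-sc WTA Kit V2, per the labels' protocols. The authors deposited 1 table of TPM per gene symbol and library. The submitters' processing notes list mm10 as build, and StringTie 1.3.4, HISAT2 2.1.0, bcl2fastq 2.16.0.10 and SAMtools 0.1.19 without roles. TPM keeps no depth, so depth is unknown, and no count test fits. Of 23420 rows, 27 whose symbols had turned into dates were left out. All 63 columns matched a sample title, which begins with iR9 where some columns have R9.

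Same-numbered iR9 libraries of suffixes 2 and 3 were averaged. Values were taken as log2(TPM + 1), and a group difference is the difference of means over cells (Python 3.11.15, NumPy 2.4.6, pandas 2.3.3). Genes had to reach 1 TPM in 10% of cells to enter the background. The calculation was tested on simulated data. Coordinates come from GENCODE M21 (GRCm38, the assembly of mm10). GENCODE lists 4 Psm pseudogene symbols, none of them in the table, so reads of such copies may count towards members.

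The members and lists were chosen with earlier results of these data known. Named in full are Psmb5, Psmb6 and Psmb7. In each class the largest lower, largest higher (or least lower) and most abundant member in WT are named, and over all members the 5 largest differences each way. Of each other list the 2 largest differences are named, except that some ubiquitin genes are not reported here. Alternatives tried were every library on its own, 1 suffix at a time, the shared range of gene number, each cell left out, other pseudocounts and filters, quantile normalization, low TPM set to 0 and the ratio of mean TPM. Leaving out cells with markers of other lineages (also within suffix 1) or of cycling, and the ratio for single members, were chosen after seeing the data. Paaf1 and Hbb-bt had no row, and Sem1, Ecpas and Ufd1 were found under older symbols.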

Additional observations from a re-analysis of the deposited data

How the results depend on the processing

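No paired analysis was possible because the labels name no animal or batch that WT and iR9 cells share. The counts of members depended most on the processing. Lower by at least 1 were 24 members, but 9 in the shared range of gene number, 15 with a pseudocount of 10, 7 after quantile normalization and 4 by the ratio of mean TPM. Higher by at least 1 was 1 member, but 0 with every library on its own, with suffix 2 alone, with a pseudocount of 10, with TPM below 10 set to 0 and without cells of other lineages. It was 3 with suffix 3 alone and without cycling cells, 4 with a pseudocount of 0.1, 7 after quantile normalization and in the shared range, and 10 with suffix 1 alone (14 without its cell with mast cell markers). With 1 cell omitted at a time there were 21 to 27 lower and 1 to 3 higher. The share of all genes was counted only with all cells, in the shared range and with suffix 1 alone. Under the other settings the counts cannot be set against such a share.

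The 8 class differences were below 0 with all cells, and in 5 of 8 in the shared range, in 4 after quantile normalization and in 5 with suffix 1 alone. With suffix 1 alone the regulatory particle chaperones were at 0.023, the activators at 0.24 and the core beta genes at 0.50, and without the cell with mast cell markers at 1.26, 0.77 and 0.99. There the median number of members at 1 TPM or more differed by 1 and Psmb10 minus Psmb7 by -2.85, in place of 3.91. For the chaperones, quantile normalization gave 0.18. With suffix 1 alone the share of TPM differed by -0.52 percentage points, in place of 0.09, and Psmb9 minus Psmb6 by 0.26, in place of -1.53. Over the shared range the median number of members at 1 TPM or more differed by 0.50, in place of -2, and Psmb8 minus Psmb5 by -0.74, in place of 1.71.

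The sign changed with suffix 1 alone for 9 of the 36 lower members and 3 higher ones (Psma7, Psmd4 and Psmg1), in the shared range for 9 lower members and 1 higher one (Psmb6), after quantile normalization for 11 lower members and by the ratio of mean TPM for 15. Of members with a difference of at least 1 in size, those that turned were Psmb1 1.73, Psmb7 1.19, Psmc6 1.84, Psmd11 0.87, Psmd10 2.46 and Psme1 1.11 with suffix 1 alone, Psmb7 in the shared range (0.10), and further members after quantile normalization (Psma5 0.22, Psmb7 0.69, Psmc2 0.41) and by the ratio of mean TPM (Psma5 0.062, Psmb3 0.30, Psmb7 0.22, Psmd9 0.51, Psme1 0.070, Psmg2 0.14). The causes were not tested. Each group is 1 sample of cells, and suffix and group overlap almost wholly.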

Other observations

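Genes that act before the proteasome were mostly lower in iR9 cells, as were 81.4% of all genes. Of 10 genes of ubiquitin activation and conjugation, 6 were lower by at least 1 (60%, against 44.5% of all genes) and 1 was higher (10%, against 5.15%). In the shared range of gene number 4 were lower by at least 1 (40%, against 26.3%). Over the 3 iR9 cells of suffix 1, 2 were lower by at least 1 and 2 higher (39.3% and 23.9% of all genes were). Ube2l3, a conjugating enzyme that works with RING-between-RING ligases, had a difference of -2.80, with a median of 121 TPM in WT cells (0 to 964) and of 0.714 in iR9 cells (0 to 407). Ube2d2a, another conjugating enzyme, had a difference of -2.71, with a median of 64.0 TPM in WT cells (0 to 648) and of 0.736 in iR9 cells (0 to 162). In the shared range of gene number these differences were -2.42 and -2.93. The gene higher by at least 1 was Nedd8, which encodes a ubiquitin-like modifier and was named after its values were seen: its difference was 1.60, with a median of 606 TPM in WT and 1376 in iR9 cells, and -0.37 over the 3 iR9 cells of suffix 1.

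Of 12 genes for shuttle factors and the VCP segregase with its cofactors, which bring tagged proteins to the proteasome, 8 were lower by at least 1 (66.7%, against 44.5% of all genes) and none was higher. In the shared range of gene number 2 of the 12 were (16.7%, against 26.3%). Ubqln1, a shuttle factor, had a difference of -3.03 and was at 10 TPM or more in 13 WT and 2 iR9 cells, while its mean over the cells of suffix 1 was 0.87 above WT. Nsfl1c, a VCP cofactor, had a difference of -2.82, with a median of 112 TPM in WT cells (0 to 1454) and of 0 in iR9 cells (0 to 858).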
